A study of Homo sapiens with 18 samples.

Results

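The genes described here are the aryl hydrocarbon receptor (AHR), its dimerisation partners ARNT and ARNT2, its repressor AHRR, and the target genes CYP1A1, CYP1B1, TIPARP, UGT1A6 and ALDH3A1. They were found by gene symbol and make up 9 of the 23786 probesets of the array, 1 probeset per gene. They were chosen by the higher CYP1A1 and CYP1B1 values on ICG-001 already known from these arrays, so every value of the 9 genes that sets ICG-001 against DMSO is given as a description, without a p-value, and counts past a threshold only describe them.

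AHR is a ligand-activated transcription factor that waits in the cytoplasm bound to HSP90 and other chaperones. Planar aromatic pollutants, plant compounds and metabolites of tryptophan bind it, after which it enters the nucleus, pairs with ARNT and switches on genes that carry a short core sequence, the xenobiotic response element. Its products metabolise the ligand, and AHRR and TIPARP feed back to restrain the receptor, so that the same genes serve in many epithelia as a readout of its activity.

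Total RNA of 2 established oral squamous cell carcinoma lines, HSC-3 and CAL27, was measured on 18 Affymetrix expression arrays in 6 groups of 3. HSC-3 or CAL27 cells were given 10 µM ICG-001, a small molecule made to block the binding of β-catenin to the coactivator CBP, or only the 0.1% DMSO that served as its vehicle. HSC-3 cells were separately transfected with a pool of siRNAs against CTNNB1, the gene of β-catenin, or with a non-targeting pool (Control siRNA), each at 25 nM. RNA was taken after 48 to 64 h from the ICG-001 and DMSO cells and after 48 h from the transfected cells. Each line stands for 1 tumour and each array for 1 well, and as separate cultures are not mentioned for them, the p-values measure only the spread between wells. Values are RMA log2 intensities, on which 1 unit is a doubling of the array's signal. The 12 ICG-001 and DMSO arrays were normalised together and the siRNA arrays in another set, so levels are compared only within a set. They are not comparable between genes, and in bulk RNA fewer cells that express a gene and less RNA per cell cannot be told apart.

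The array medians lay between 4.73 and 4.77 in the ICG-001 set and between 4.68 and 4.73 in the siRNA set, and a gene was tested where it exceeded the median on at least 1 array of its set. The squamous markers that could be named, KRT5, KRT14, CDH1 and EPCAM, were above the median on all 18 arrays (6.82 to 12.2). KRT14 differed by -1.04 on ICG-001 in HSC-3 and by -0.96 in CAL27. These values were added after they were seen, so no p-value is given. In HSC-3 KRT5 was also lower (11.52 to 11.62, against 12.08 to 12.18 on DMSO). CDH1 (10.13 to 10.18, against 9.92 to 9.97) and EPCAM (10.19 to 10.33, against 10.08 to 10.15) were higher there. In CAL27 KRT5 overlapped (11.58 to 11.66 on ICG-001, against 11.42 to 11.63 on DMSO). CDH1 (10.52 to 10.59, against 10.68 to 10.74) and EPCAM (10.19 to 10.29, against 10.30 to 10.49) were lower there. Markers of fibroblasts, leukocytes, endothelium and hepatocytes were mostly below the median, although COL1A1 was above it on every array. In CAL27 the endothelial CDH5 lay at 7.23 to 7.53 on ICG-001, against 8.10 to 8.34 on DMSO, and the leukocyte marker CD14 at 4.16 to 4.45 on ICG-001, against 5.29 to 5.77 on DMSO. The mean of the 4 leukocyte markers lay there at 3.10 to 3.28 on ICG-001, against 3.47 to 3.61 on DMSO. Of these 4 only CD14 separated the CAL27 groups, while PTPRC, CD3E and CSF1R overlapped. The endothelial PECAM1, VWF and KDR overlapped there as well. The part of these markers in the ICG-001 differences below was not tested. Arrays of the same group correlated at 0.993 to 0.996 (Pearson, across genes).

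Sequence just around the start site was at hand for 6 of the 9 genes, in 10 windows of 300 bases taken from RefSeq (GRCh38.p14), each running from 250 bases before to 50 bases after the start. The core of the xenobiotic response element, GCGTG, was searched on both strands and was found in 6 of these windows, which belong to 5 of the 6 genes. The same 5 letters occur in 36.5% of all 35116 such windows. The longer TNGCGTG, which contains GCGTG, was in 2 of the 10 windows and in 5.51% of all. The 4 windows below are shown because they hold the core and belong to 3 target genes and the repressor whose levels on ICG-001 are given next. Capitals mark GCGTG, or its reverse complement CACGC where the match is on the other strand. Each is written 5′ to 3′ along the gene, at chr15:74725479-74725778 (minus strand), chr3:156674340-156674639 (plus strand), chr5:321464-321763 (plus strand) and chr2:233691452-233691751 (plus strand).
CYP1A1: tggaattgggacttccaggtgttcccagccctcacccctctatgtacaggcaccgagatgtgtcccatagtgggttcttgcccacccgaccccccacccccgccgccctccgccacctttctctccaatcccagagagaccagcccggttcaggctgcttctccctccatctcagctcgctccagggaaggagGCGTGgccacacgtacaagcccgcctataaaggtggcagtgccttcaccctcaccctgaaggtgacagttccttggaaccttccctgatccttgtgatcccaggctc
TIPARP: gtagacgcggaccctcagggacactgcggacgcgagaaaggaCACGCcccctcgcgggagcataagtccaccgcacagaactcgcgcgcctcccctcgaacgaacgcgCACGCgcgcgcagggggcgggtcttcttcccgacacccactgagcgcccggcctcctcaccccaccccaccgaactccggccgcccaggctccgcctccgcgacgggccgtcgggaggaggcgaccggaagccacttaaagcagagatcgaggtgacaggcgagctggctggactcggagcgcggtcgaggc
AHRR: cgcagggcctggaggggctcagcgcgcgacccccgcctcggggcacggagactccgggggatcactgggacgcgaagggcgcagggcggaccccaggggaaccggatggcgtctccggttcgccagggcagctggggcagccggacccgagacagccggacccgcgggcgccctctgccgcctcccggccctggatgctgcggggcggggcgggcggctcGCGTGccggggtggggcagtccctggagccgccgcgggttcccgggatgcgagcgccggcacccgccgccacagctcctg
UGT1A6: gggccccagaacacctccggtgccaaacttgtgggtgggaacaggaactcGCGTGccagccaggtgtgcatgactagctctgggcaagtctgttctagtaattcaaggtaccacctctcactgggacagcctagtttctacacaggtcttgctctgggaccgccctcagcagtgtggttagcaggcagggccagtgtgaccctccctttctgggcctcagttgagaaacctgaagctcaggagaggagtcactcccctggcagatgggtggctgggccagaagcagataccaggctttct
In the CYP1A1 window the core began 57 bases before the start, and the enhancer elements for which this gene is best known lie farther upstream, outside the window. The printed TIPARP window held it 208 and 142 bases before the start, both on the opposite strand. The first AHRR window held it 30 bases and the printed UGT1A6 window 200 bases before the start, and in these 2 windows it was part of TNGCGTG. The other windows of TIPARP and UGT1A6 and the ARNT window held none. The remaining matches were in the other AHRR window, 247 and 42 bases before its start, and in the AHR window, 37 bases after its start. These are letters in a window and were not tested as binding sites.

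On ICG-001 the receptor's transcript stood higher in HSC-3 cells and close to its DMSO level in CAL27 cells. AHR read 10.50, 10.48 and 10.56 on the HSC-3 ICG-001 arrays, against 9.65, 9.69 and 9.64 on the HSC-3 DMSO arrays. The groups were apart by 0.85 log2 (SE 0.065), or 1.81-fold. In CAL27 cells, which carried more AHR transcript to begin with, it read 10.95, 10.94 and 10.99 on ICG-001, against 10.79, 10.83 and 10.83 on DMSO. These groups did not overlap either, although they were only 0.14 log2 apart (SE 0.079). Across the 4 groups, then, AHR was highest in CAL27 on ICG-001, followed by CAL27 on DMSO, HSC-3 on ICG-001 and HSC-3 on DMSO, and no neighbours in that order overlapped.

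ARNT, the obligate nuclear partner of AHR and of the hypoxia-inducible factors, differed little on ICG-001, with opposite signs in the 2 lines. Its values were 8.64, 8.76 and 8.69 in HSC-3 on ICG-001, against 8.34, 8.43 and 8.37 on DMSO, a difference of 0.32 (SE 0.070). In CAL27 they were 8.10, 8.18 and 8.19 on ICG-001, against 8.37, 8.28 and 8.38 on DMSO, a difference of -0.18 (SE 0.083). The groups did not overlap in either line, and the DMSO levels of the 2 lines did overlap. ARNT2, the paralog best known from neurons, lay below the array median on all 18 arrays, between 3.36 and 4.42, was therefore not tested, and overlapped between all groups of each set.

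AHRR competes with AHR for ARNT and is itself an AHR target. It stood higher on ICG-001 in both lines and by similar amounts. In HSC-3 cells it read 6.82, 7.09 and 7.03 on ICG-001, against 5.49, 5.61 and 5.77 on DMSO (2.57-fold, SE 0.11 log2). In CAL27 cells it read 5.51, 5.74 and 5.73 on ICG-001, against 4.61, 4.39 and 4.77 on DMSO (2.10-fold, SE 0.12 log2), where it was near the array median. ICG-001 separated the groups in both lines, and the level reached in CAL27 on ICG-001 overlapped the level of HSC-3 on DMSO.

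CYP1A1, the monooxygenase that is the standard readout of AHR activity, had the widest difference of the 9 genes in either line. It read 10.44, 10.58 and 10.49 in HSC-3 on ICG-001, against 4.61, 4.45 and 4.86 on DMSO, and 7.92, 7.79 and 8.01 in CAL27 on ICG-001, against 4.58, 4.78 and 5.06 on DMSO. Both lines thus started around the array median, with overlapping DMSO values, and ended more than 2 log2 units apart. The differences were 5.86 in HSC-3 (SE 0.11, 58.0-fold) and 3.10 in CAL27 (SE 0.13, 8.60-fold). Differences from a level this close to the median are folds of array signal, which is compressed at the low end of the scale.

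**Figure D1:**
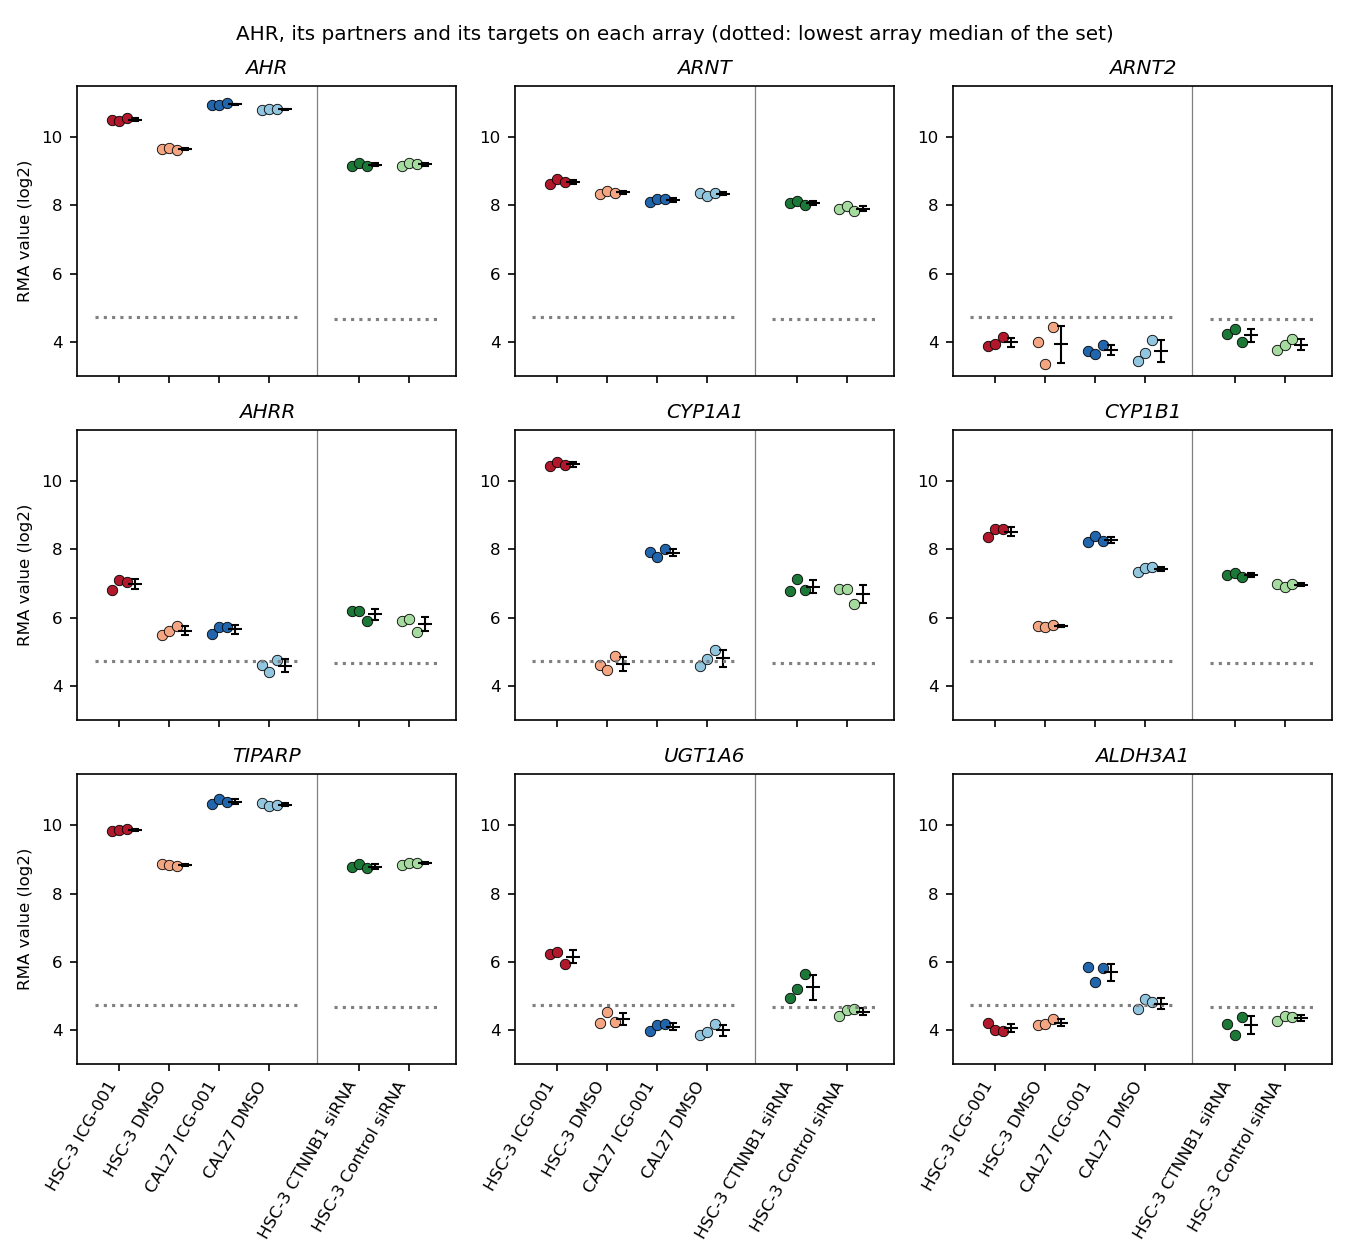
RMA values (log2, vertical axis) of the 9 genes on each of the 18 arrays, 1 point per array, in the 6 groups along the horizontal axis. The grey line separates the 2 separately normalised sets and the dotted line is the lowest array median of each set. CYP1A1 lies at 10.44 to 10.58 in HSC-3 on ICG-001 and at 4.45 to 4.86 in HSC-3 on DMSO.

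CYP1B1, the extrahepatic member of the same CYP family, behaved otherwise: the lines differed on DMSO and met on ICG-001. It read 8.37, 8.60 and 8.60 in HSC-3 on ICG-001, against 5.77, 5.72 and 5.77 on DMSO (difference 2.77, SE 0.086, 6.82-fold). In CAL27 it read 8.22, 8.39 and 8.25 on ICG-001, against 7.35, 7.45 and 7.47 on DMSO (difference 0.86, SE 0.090). The ICG-001 arrays of the 2 lines overlapped, whereas their DMSO arrays did not.

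TIPARP, an ADP-ribosyltransferase that is induced by AHR and marks it for degradation, followed AHR itself. It read 9.83, 9.86 and 9.89 in HSC-3 on ICG-001, against 8.86, 8.85 and 8.80 on DMSO (difference 1.02, SE 0.065, 2.03-fold). In CAL27 it read 10.63, 10.76 and 10.69 on ICG-001, against 10.65, 10.56 and 10.60 on DMSO (difference 0.091, SE 0.084). The CAL27 groups overlapped and both lay above all HSC-3 arrays.

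The conjugating and oxidising enzymes each stood higher in 1 line. UGT1A6, which glucuronidates phenols, read 6.24, 6.28 and 5.94 in HSC-3 on ICG-001, against 4.21, 4.53 and 4.23 on DMSO (difference 1.83, SE 0.13, 3.55-fold). In CAL27 it stayed between 3.97 and 4.18 on ICG-001, against 3.87 to 4.18 on DMSO, and these groups overlapped. The HSC-3 ICG-001 arrays were the only ones of their set above the median, so UGT1A6 entered the tests through the group where it was high.

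UGT1A6 shares its later exons with the other UGT1A genes. The 7 of them that could be named lay below the median on every array, at 0.91 to 3.63 in HSC-3 on ICG-001 and 1.13 to 4.64 in HSC-3 on DMSO. In CAL27 they lay at 1.23 to 3.52 on ICG-001 and 1.39 to 3.07 on DMSO. Whether the UGT1A6 probes lie in the shared exons was not tested. ALDH3A1, an aldehyde dehydrogenase of stratified epithelia, had the opposite pattern. It read 5.84, 5.41 and 5.83 in CAL27 on ICG-001, against 4.60, 4.90 and 4.82 on DMSO (difference 0.92, SE 0.14). In HSC-3 it was below the median on every array, at 3.97 to 4.20 on ICG-001 and 4.14 to 4.33 on DMSO, and these groups overlapped.

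Counted together, 7 of the 8 genes that entered the tests passed limma's adjusted p of 0.05 as higher on ICG-001 in HSC-3, where 24.2% of all 13493 tested genes were higher by the same rule and 23.6% lower, and none was lower. The 8th was ALDH3A1. In CAL27 4 passed as higher (AHRR, CYP1A1, CYP1B1 and ALDH3A1), where 5.33% of all tested genes did, and none was lower (5.9% of all). The ICG-001 difference in HSC-3 minus the one in CAL27 was largest for CYP1A1, at 2.75 log2. It was 1.91 for CYP1B1, 1.72 for UGT1A6, 0.93 for TIPARP, 0.71 for AHR, 0.50 for ARNT and 0.29 for AHRR, and it was -1.08 for ALDH3A1. By the same rule 6 genes passed as more positive in HSC-3 and 1, ALDH3A1, as more positive in CAL27, beside 13.9% and 13.3% of all tested genes, while AHRR did not pass. Without overlap between ICG-001 and DMSO arrays were 7 higher genes in HSC-3, beside 61.8% of all tested genes in either direction, and 5 higher and 1 lower in CAL27, beside 36.8%. With a stricter rule, an adjusted p of at most 0.01 and at least a 1.5-fold difference, 6 genes passed in HSC-3 and 4 in CAL27, beside 17% and 3.36% of all. These counts and differences come from the contrasts behind the choice of the genes, and nothing is read from them.

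**Figure D2:**
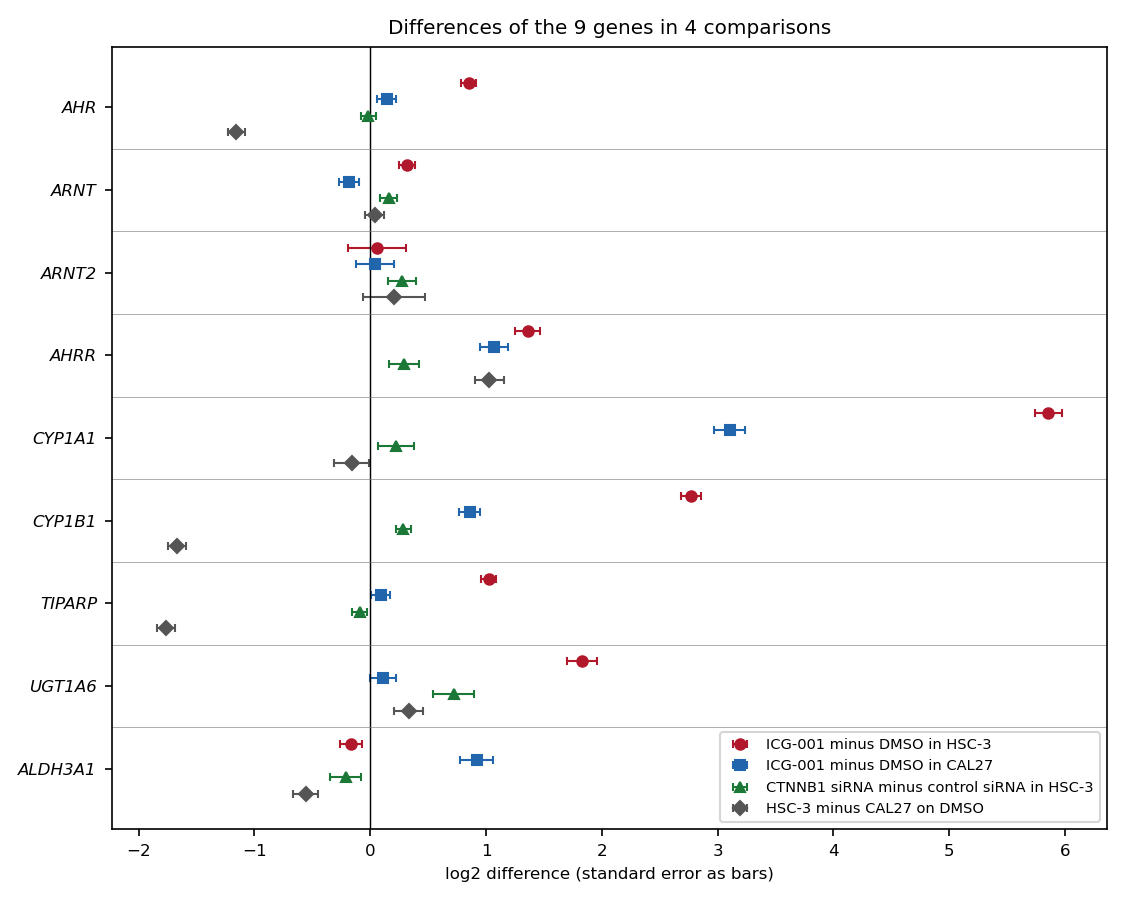
Log2 differences (horizontal axis, with standard errors as bars) of the 9 genes (rows) in the 4 comparisons: ICG-001 minus DMSO in HSC-3 (circles) and in CAL27 (squares), CTNNB1 siRNA minus Control siRNA in HSC-3 (triangles), and HSC-3 minus CAL27 on DMSO (diamonds). The circle of CYP1A1 lies at 5.86 and its triangle at 0.22.

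On DMSO 5 of the 8 tested genes passed between the lines, beside 58.6% of all tested genes, so the share is that of genes at large. There, HSC-3 cells carried less AHR, TIPARP, CYP1B1 and ALDH3A1 transcript than CAL27 cells and more AHRR. AHR was lower by -1.16 log2 (SE 0.075, limma adjusted p = 1.19e-05), TIPARP by -1.77 (SE 0.077, limma adjusted p = 1.79e-06) and CYP1B1 by -1.67 (SE 0.080, limma adjusted p = 2.62e-06). ALDH3A1 was lower by -0.56 (SE 0.11). It was below the median on every HSC-3 array of the set. It thus entered the tests, and the count of 5, through CAL27, where it was high, and no p-value is given. AHRR was higher by 1.03 (SE 0.12, limma adjusted p = 0.000252). In each of these 5 genes the 3 HSC-3 DMSO arrays lay on 1 side of the 3 CAL27 DMSO arrays.

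The other tested genes did not pass between the lines. The difference of CYP1A1 was -0.16 (95% interval -0.51 to 0.19, limma adjusted p = 0.391) and that of ARNT 0.038 (95% interval -0.15 to 0.22, limma adjusted p = 0.708). UGT1A6 differed by 0.33 without overlap but lay below the median on all 6 arrays. It entered the tests only through HSC-3 on ICG-001, so no p-value is given. Of the 8 tested genes 1 thus passed as higher and 4 as lower in HSC-3, beside 30.1% and 28.6% of all tested genes, and 6 did not overlap, beside 68.2%. The stricter rule kept 4, beside 29.8%. The DMSO arrays also serve the ICG-001 differences above, so the 2 sets of values are not independent.

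Whether lowering β-catenin moved the same genes was asked with CTNNB1 siRNA. The target itself was reduced: CTNNB1 read 7.35, 6.90 and 7.25 on the CTNNB1 siRNA arrays, against 10.22, 10.26 and 10.19 on the Control siRNA arrays. This is a difference of -3.06 (SE 0.12, limma adjusted p = 0.000495). AHR, by contrast, read 9.16, 9.24 and 9.17 with CTNNB1 siRNA, against 9.17, 9.24 and 9.20 with Control siRNA, and these groups overlapped. Its difference was -0.018 with a 95% interval of -0.17 to 0.13 (limma adjusted p = 0.955).

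None of the target genes passed the test with the knockdown. CYP1A1 read 6.78, 7.14 and 6.82 with CTNNB1 siRNA, against 6.84, 6.83 and 6.39 with Control siRNA. The groups overlapped, and the difference was 0.22 (95% interval -0.14 to 0.59, limma adjusted p = 0.693). CYP1B1 read 7.25, 7.30 and 7.21 with CTNNB1 siRNA, against 6.984, 6.910 and 6.999 with Control siRNA, without overlap. Its difference was 0.29 (95% interval 0.13 to 0.44, limma adjusted p = 0.272). UGT1A6 read 4.93, 5.19 and 5.65 with CTNNB1 siRNA, against 4.42, 4.58 and 4.60 with Control siRNA, again without overlap (difference 0.72). Only its CTNNB1 siRNA arrays were above the median. It thus entered the tests through the group where it was high, and no p-value is given.

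Of the remaining genes ARNT differed by 0.16 without overlap (limma adjusted p = 0.559), AHRR by 0.29 (limma adjusted p = 0.555) and TIPARP by -0.091 (limma adjusted p = 0.708), the last 2 with overlap. ALDH3A1 and ARNT2 were below the median on every siRNA array and were not tested. By limma 0 of the 7 tested genes passed, and 0.0867% of all 12682 tested genes passed. An unadjusted p under 0.05 was found for 2, CYP1B1 and UGT1A6, the latter tested only through its high group. The stricter rule also kept 0, beside 0.00789% of all. The groups of 3 genes, UGT1A6 among them, did not overlap, beside 19.1% of all tested genes.

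The proteins that hold and assist the receptor were taken from lists of gene names. Of the chaperone complex, 2 of the 3 measured genes fell on ICG-001 in HSC-3, beside 23.6% of all tested genes, HSP90AB1 by 0.38 and PTGES3, the p23 cochaperone, by 0.33 (limma adjusted p = 0.0111 and 0.0105). None of the 3 passed in CAL27, beside 5.33% of all as higher and 5.9% as lower. Of 10 coregulators of AHR and ARNT, 6 rose and 2 fell in HSC-3, beside 24.2% and 23.6% of all tested genes, and the list's median was 0.29, beside 0.00081 over all tested genes. NCOA1 (0.78) and NCOA2 (0.54), coactivators of the p160 family, rose, and SMARCA4 (-0.49), the chromatin-remodelling ATPase BRG1, fell (limma adjusted p = 0.000232, 0.00104 and 0.00151). In CAL27 1 coregulator passed, NRIP1, which fell by 0.64 (limma adjusted p = 0.0041), and the median was -0.019.

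Of 12 tested genes from a list of further AHR targets, 9 rose and 1 fell on ICG-001 in HSC-3, beside 24.2% and 23.6% of all tested genes, with a median of 0.53. In CAL27 5 rose and none fell, beside 5.33% and 5.9% of all, with a median of 0.19 beside 0.0044 over all tested genes. The CAL27 count was 3 without CAL27 DMSO replicate 2 and also 3 without CAL27 ICG-001 replicate 2 or 3, and without the last of these 1 gene passed as lower. STC2, a secreted glycoprotein of the stress response, read 8.999, 9.06 and 9.03 in HSC-3 on ICG-001, against 7.36, 7.52 and 7.31 on DMSO (difference 1.63, limma adjusted p = 4.28e-05). In CAL27 it rose by 0.66 (limma adjusted p = 0.00228).

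NQO1, a quinone reductase controlled by both AHR and NRF2, rose in CAL27 by 0.54 (limma adjusted p = 0.00753). In HSC-3 NQO1 differed by 0.30, a value added after it was seen and given without a p-value. NFE2L2, the gene of NRF2, rose in HSC-3 by 0.60 (limma adjusted p = 0.000493) and differed by 0.11 in CAL27, where it did not pass. SLC7A5, the tryptophan and leucine transporter, rose by 0.51 in HSC-3 and 0.59 in CAL27 (limma adjusted p = 0.000793 and 0.00748). CYP1A2, the liver member of the CYP1A pair, lay below the median on every array and was not tested. On DMSO 3 of the 12 were higher and 8 lower in HSC-3 than in CAL27, beside 30.1% and 28.6% of all tested genes, with a median of -0.77 beside 0.024 over all tested genes. EREG (-3.53), an EGFR ligand, and XDH (-2.05), xanthine dehydrogenase, were lower in HSC-3, and ABCG2 (2.16), a drug efflux pump, was higher.

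Enzymes that make and remove tryptophan-derived ligands rose and fell. Of 8 tested, 3 rose and 1 fell in HSC-3, beside 24.2% and 23.6% of all tested genes, with a median of 0.026. In CAL27 1 rose and 1 fell, beside 5.33% and 5.9% of all, with a median of -0.067. With any 1 array left out 2 rose in HSC-3. Without HSC-3 ICG-001 replicate 3, 2 fell there. In CAL27 2 rose without DMSO replicate 1, and 2 fell without DMSO replicate 2. KMO, which hydroxylates kynurenine, read 9.25, 9.15 and 9.39 in HSC-3 on ICG-001, against 7.20, 7.13 and 7.26 on DMSO (difference 2.07, limma adjusted p = 2.73e-05). KYNU, which cleaves the product, read 10.51, 10.49 and 10.51 in HSC-3 on ICG-001, against 8.67, 8.81 and 8.74 on DMSO (difference 1.76, limma adjusted p = 2.06e-05). In CAL27 KYNU rose by 0.49 (limma adjusted p = 0.00931), and KMO differed by 0.48 (limma adjusted p = 0.0644).

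IDO1, which opens the pathway, was the gene counted as lower in CAL27. It read 4.55, 4.08 and 4.13 in CAL27 on ICG-001, against 6.54, 6.78 and 6.79 on DMSO (difference -2.45). The CAL27 DMSO arrays were the only ones above the median, so IDO1 entered the tests through the group where it was high, and no p-value is given. In HSC-3 it was below the median on all 6 arrays, at 3.01 to 3.65 on ICG-001 and 3.22 to 3.58 on DMSO, a level at which a fall could hardly be measured. The responses of the 2 lines differed by 1.28 for KYNU and 1.59 for KMO (limma adjusted p = 5.31e-06 and 7.26e-05 for the interaction). With CTNNB1 siRNA none of the tested genes in any of the 7 lists passed limma's threshold.

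**Figure D3:**
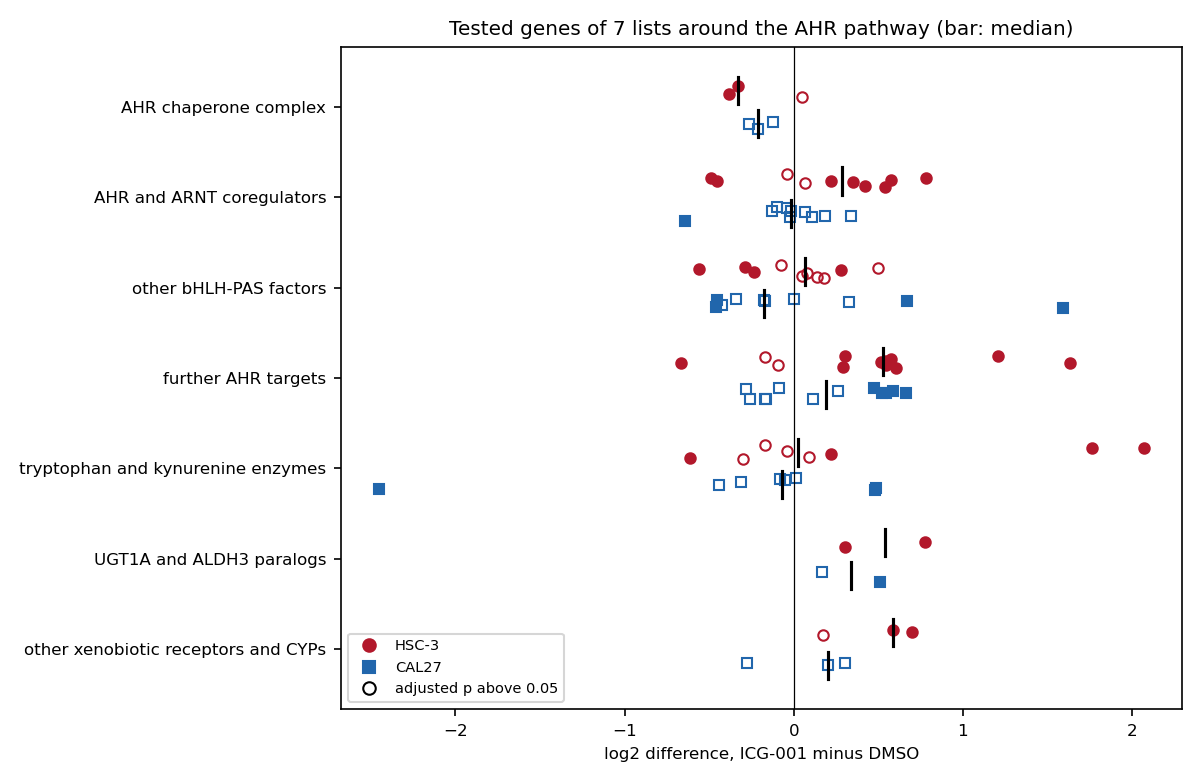
Log2 difference of ICG-001 minus DMSO (horizontal axis) for each tested gene of 7 lists (rows), in HSC-3 (circles) and CAL27 (squares), with open symbols for an adjusted p above 0.05 and a bar at the median. The rightmost circles are KMO at 2.07 and KYNU at 1.76, and the leftmost square is IDO1 at -2.45.

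For the 8 genes that entered the tests, likeness was measured over the 12 arrays of the ICG-001 set. Pearson correlations are given as a description, since the arrays form only 4 groups and share their normalisation. CYP1A1 correlated at 0.85 with AHRR, 0.81 with CYP1B1 and 0.81 with UGT1A6, but at 0.36 with AHR and 0.21 with TIPARP. TIPARP correlated at 0.99 with AHR, with which CYP1B1 correlated at 0.83 and UGT1A6 at -0.094. Among 11789 genes the 5 most like CYP1A1 were TRIB3, MGAT4B, MORN4, TPRA1 and NFE2L1 (0.99 each). Those most like AHR were WFDC2, GADD45A, NTN4, JUND and APP (0.99 to 1.00).

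TRIB3, a pseudokinase of the integrated stress response, read 10.30, 10.43 and 10.46 in HSC-3 on ICG-001, against 7.90, 7.82 and 7.95 on DMSO. In CAL27 it read 9.48, 9.54 and 9.61 on ICG-001, against 8.03, 7.87 and 8.06 on DMSO. As with CYP1A1, its DMSO levels overlapped between the lines and its ICG-001 levels did not.

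**Figure D4:**
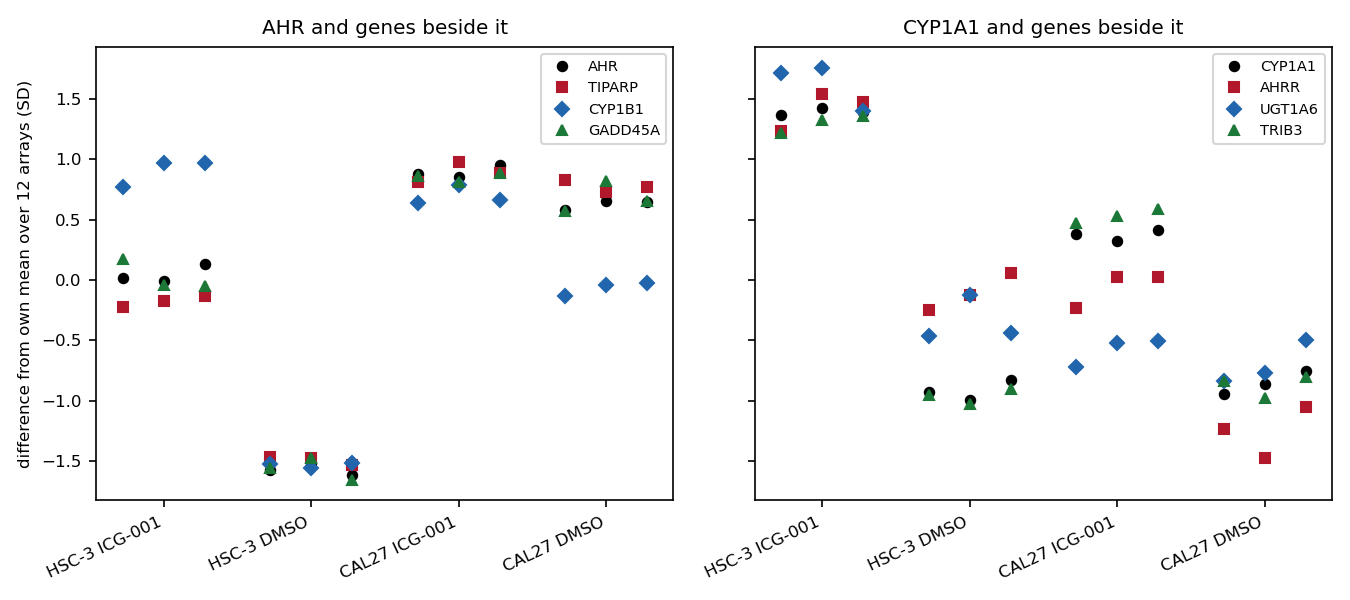
Values of selected genes over the 12 arrays of the ICG-001 set, each as the difference from its own mean in its own SD (vertical axis), by group (horizontal axis). By group mean AHR, TIPARP and GADD45A are highest in CAL27 on ICG-001. CYP1B1 in the same panel, and CYP1A1, AHRR, UGT1A6 and TRIB3 have their highest mean in HSC-3 on ICG-001. TIPARP and GADD45A overlap between CAL27 on ICG-001 and on DMSO, and CYP1B1 overlaps between the lines on ICG-001.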

How the data were processed

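RNA of 18 wells was hybridised to Affymetrix arrays, and the authors deposited log2 values made by RMA (affy 1.36.1 in R 2.15.1, per the submitters' processing notes) on a custom layout with 1 probeset per Entrez gene. The genome build was not given in the sources used here. The 12 ICG-001 and DMSO arrays were normalised together, and the siRNA arrays in a set with further arrays not used here. Symbols came from the platform annotation (22458 probesets with 1 symbol, 1328 without). No per-sample column was left unassigned.

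Each comparison was fitted on its 6 arrays (the interaction on 12) with limma 3.58.1 in R 4.3.3, over probesets that exceeded the array median on 1 or more arrays of their set, with Benjamini-Hochberg adjustment over all of them (13493 and 12682) and a call at an adjusted p of at most 0.05. The study's rule of 0.01 with a 1.5-fold change was an alternative, as were cyclic loess, equal array medians, other filters, priors and weights, a replicate block and leaving out each array. Groups came from the sample titles. The number of arrays limits the precision.

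The 9 genes and the 7 lists (88 entries, 87 different genes, 76 with a probeset) were chosen with earlier results of these data known. Named genes were all 9, CTNNB1, up to 4 listed genes per list and comparison with the smallest adjusted p, and the 5 genes most like CYP1A1 and AHR. IDO1 and NQO1 in HSC-3, KMO, NFE2L2 and RXRA in CAL27 and CYP1A2 were added after their values were seen. So were the ICG-001 and DMSO values of the squamous, leukocyte and endothelial markers. Tested on simulated data, the fit called 47 of 50 genes changed 2-fold in the HSC-3 comparison and 44 of 50 in the siRNA comparison, and 36 and 37 of 50 changed 1.5-fold. More genes were changed there than the 11 called with CTNNB1 siRNA, which eases the adjusted threshold. The rates can therefore overstate detection in the siRNA comparison. Promoter windows came from RefSeq GRCh38.p14.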

Additional observations from a re-analysis of the deposited data

Results flagged for a closer look

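In 5 of the 85 genes made up of the 9 genes above and the 7 lists, every array of HSC-3 moved 1 way and every array of CAL27 the other way on ICG-001, without overlap between ICG-001 and DMSO in either line. This held for 4 of the 56 of them that were tested, beside 5.31% of all 13493 tested genes. As the pattern itself singled the genes out, their values are a description and no p-value is given. Values are the log2 difference on ICG-001 in HSC-3 minus the one in CAL27. ARNT differed by 0.50, from the values given above. HES1, a Notch-responsive repressor, differed by 1.49, with 8.81, 8.75 and 8.88 in HSC-3 on ICG-001 against 7.71, 7.45 and 7.66 on DMSO, and 9.08, 9.16 and 9.13 in CAL27 on ICG-001 against 9.38, 9.39 and 9.45 on DMSO. XDH differed by -0.93, with 6.31, 6.31 and 6.22 in HSC-3 on ICG-001 against 6.82, 6.96 and 7.06 on DMSO, and 9.16, 9.26 and 9.34 in CAL27 on ICG-001 against 8.97, 8.95 and 9.05 on DMSO.

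PER3, a clock gene of the PAS family, differed by 0.74, with 6.46, 6.45 and 6.52 in HSC-3 on ICG-001 against 6.08, 6.35 and 6.15 on DMSO, and 5.44, 5.45 and 5.40 in CAL27 on ICG-001 against 5.84, 6.00 and 5.81 on DMSO. VAV3 differed by 1.25 but lay below the array median on every array of the set, and the difference was not tested. Groups of 3 are too small for a check of single arrays that stand apart.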

How the results depend on the processing

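The counts of the 9 genes stayed within 1.5 times of the reported ones in all 79 alternative settings run: 6 to 7 for ICG-001 in HSC-3, 4 in CAL27, 6 to 7 for the interaction, 4 to 6 between the lines on DMSO and 0 with CTNNB1 siRNA. Of 666 single values of these genes 657 counted as the same. For tested genes between the lines on DMSO and with CTNNB1 siRNA this meant the same direction and call. Otherwise it meant a shift smaller than the largest SD within the groups compared, so the direction could differ. ARNT2 on ICG-001 in HSC-3, at 0.057 with all arrays, ranged from -0.22 to 0.31. AHR with CTNNB1 siRNA was -0.018 with all arrays and 0.0018 without Control siRNA replicate 2. UGT1A6 between the lines on DMSO lay below the median on all arrays compared. Its call changed to a pass with equal array medians, array weights, a single fit over 12 arrays and without CAL27 DMSO replicate 3. Under the settings run, the limma adjusted p of CYP1B1 with CTNNB1 siRNA ranged from 0.064 to 0.638, and UGT1A6 passed in none of them. The cause was not tested. Of 1036 list counts 73 moved by more than 1.5 times, most from a count of 1 or 2. Correlations under other normalisations and with each array left out were chosen after seeing the data, and that of ALDH3A1 with CYP1A1 took either sign (-0.15 to 0.11).

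Replicate numbers showed no clear pairing of the wells: deviations of arrays with the same number correlated at -0.043 to 0.18. In the CAL27 comparison the correlations were 0.18, 0.028 and 0.11, and 3 arrays per group are too few to settle whether wells were paired. With a replicate block the counts were 7, 4, 7, 5 and 0, the reported ones. Levels below the array median, as for ARNT2 throughout, UGT1A6 outside its high groups and ALDH3A1 in HSC-3, limit what these arrays can show.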

Other observations

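The list of other bHLH-PAS transcription factors, which share ARNT or its relatives as partners, also counted the PER clock genes of the wider PAS family. Its genes changed in both directions on ICG-001. Of 10 tested, 1 rose and 3 fell in HSC-3, beside 24.2% and 23.6% of all tested genes, and 2 rose and 2 fell in CAL27, beside 5.33% and 5.9%. NPAS2, a partner of the clock factor BMAL1, read 7.26, 7.48 and 7.45 in CAL27 on ICG-001, against 5.65, 5.79 and 5.97 on DMSO (difference 1.59, limma adjusted p = 0.000248), and SIM2 rose there by 0.67 (limma adjusted p = 0.00565). In HSC-3 BMAL2 fell by 0.56 and EPAS1, the gene of HIF-2α, by 0.29 (limma adjusted p = 0.00152 and 0.0117). The 1 gene that rose in HSC-3 was PER3, whose call was lost in 9 alternative settings (highest adjusted p = 0.114), among them the replicate block and those without HSC-3 DMSO replicate 1 or 3 or without any 1 of the ICG-001 replicates. The remaining gene that fell there, HIF1A, lost its call in 7 settings (highest adjusted p = 0.131), among them the block and those without any 1 of the DMSO replicates or without ICG-001 replicate 2 or 3. Both calls of falling genes in CAL27 were lost without DMSO replicate 2 or without ICG-001 replicate 2 or 3, and 1 of them without DMSO replicate 3 or without ICG-001 replicate 1.

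POR, the reductase that hands electrons to CYP1A1 and the other microsomal CYP enzymes, read 7.52, 7.60 and 7.66 in HSC-3 on ICG-001, against 6.80, 7.03 and 6.87 on DMSO (difference 0.70, limma adjusted p = 0.000857). In CAL27 it differed by 0.20 (limma adjusted p = 0.199), and the 2 responses differed by 0.50 (limma adjusted p = 0.00971). RXRA, the partner of the pregnane and constitutive androstane receptors, rose in HSC-3 by 0.58 (limma adjusted p = 0.00186). In CAL27 RXRA read 7.78, 7.95 and 7.83 on ICG-001, against 7.32, 7.61 and 7.71 on DMSO, without overlap, and did not pass. The difference between its responses in the lines did not pass either.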
